A study of Mus musculus with 16 samples.

Results

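The 10 genes described here encode the enzymes that carry hexose phosphate to lactate in the muscle fibre: Gpi1, Aldoa, Tpi1, Gapdh, Pgk1, Pgam2, Eno3, Pkm, Ldha and Ldhb. They were chosen by name, as the rows of the deposited table with these gene symbols, and are 10 of its 14538 genes; all 10 passed the minimum of 10 normalized counts on average and are among the 11841 genes tested. RNA of the tibialis anterior, a hindlimb muscle, was sequenced from 16 wild-type C57BL/6 mice, males of C57BL/6J according to the methods section, and each gave 1 library. All mice had been given the NASH diet, which is rich in fat and fructose, from 8 weeks of age at about 29 °C and were housed singly for the treatment. Vehicle mice (n = 5) were the controls, GDF15 mice (n = 6) received recombinant GDF15, a hormone that lowers food intake, under the skin once a day, and PairFed mice (n = 5, numbered 2 to 6) were given each day what the GDF15-treated mice had eaten on the previous day. The labels list doses of 0.3, 1 and 5 nmol/kg without tying a dose to a library; whether the pair-fed mice were injected, the length of treatment and the age at sampling of these mice are not given in the sources used here. The approximate depth was 9514787 to 15057271 reads per library. Defining genes of fast fibres were abundant in every library, with a summed level of 10 genes of 2453930 to 3096712 normalized counts, and those of slow fibres were low, with a summed level of 8 genes of 1246 to 4243, the pattern of a fast-twitch muscle.

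Glycolysis splits glucose phosphate into pyruvate in the cytosol and yields ATP without oxygen, and lactate dehydrogenase then reduces pyruvate to lactate, which returns the NAD needed by the glyceraldehyde phosphate step. Fast-twitch fibres rely on this route during short, intense work and hold large amounts of its enzymes, several of them as muscle forms (aldolase A, phosphoglycerate mutase 2, beta-enolase). Lactate dehydrogenase is a tetramer of A and B subunits; the A subunit, from Ldha, predominates in fast glycolytic muscle and the B subunit, from Ldhb, in heart and oxidative muscle.

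The abundance of 9 of these messengers was close to the same in vehicle-treated, GDF15-treated and pair-fed muscle, and no difference between groups passed the test for any of the 10, where 6.37% (pair-fed against vehicle), 0.769% (GDF15 against vehicle) and 2.17% (GDF15 against pair-fed) of all genes did. Aldoa came closest: it was higher in all 5 pair-fed than in all 5 vehicle mice, by 10.6%, and passed under 4 alternatives to the processing. Apart from Ldhb, every 95% confidence interval lay between -14.2% and 18.7% of the group it was compared with. Ldhb, the least abundant, was also the one that differed most between mice, and within groups it went in the opposite direction to the other 9. Of 12 other tested genes of the steps before aldolase, 5 were called higher in pair-fed than in vehicle-treated muscle, where 6.37% of all genes were called. The calls of Hk2, the gene of hexokinase 2, Pfkfb4 and Tigar held under every alternative tried. That of Pfkm was lost under quantile normalization alone, and that of Pfkfb3 under 2 of 13 alternatives and without any of 6 libraries.

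Sequence was set beside the values for the lactate dehydrogenase genes only, since their levels varied in opposite directions within groups (r = -0.75). No difference of their ratio between groups passed the test. RefSeq (GRCm38.p6) gives the 250 bases before the start of each gene, for Ldha before the more upstream of the starts it lists. The window of Ldha lies on the plus strand at chr7:46845554-46845803 and that of Ldhb on the minus strand at chr6:142507958-142508207, and both are printed 5′ to 3′ with motif matches in capitals.
Ldha: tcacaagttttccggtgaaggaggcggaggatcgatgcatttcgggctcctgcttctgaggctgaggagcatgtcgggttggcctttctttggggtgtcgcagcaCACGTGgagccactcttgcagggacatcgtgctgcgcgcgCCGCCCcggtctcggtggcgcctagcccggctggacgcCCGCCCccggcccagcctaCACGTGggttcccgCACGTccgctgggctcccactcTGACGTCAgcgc
Ldhb: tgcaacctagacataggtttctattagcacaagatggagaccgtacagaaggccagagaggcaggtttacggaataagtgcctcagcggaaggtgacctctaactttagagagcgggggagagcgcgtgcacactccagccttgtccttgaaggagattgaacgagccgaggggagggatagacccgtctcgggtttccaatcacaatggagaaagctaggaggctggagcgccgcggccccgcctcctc
The motifs searched on both strands were ACGTG, the core of the hypoxia response element, CACGTG, the E-box, which contains ACGTG on each strand, TGACGTCA, the cAMP response element, and GGGCGG, the GC box. The Ldha window held 2 matches of CACGTG, 1 further ACGTG match outside them, 1 of TGACGTCA, whose first base lies 12 bases before the start, and 2 of GGGCGG. The Ldhb window held 0 matches of any of them, and so did the window before the other Ldha start, at chr7:46846832-46847081. Of all 32851 windows of this length, 16.6% held ACGTG, 6.02% CACGTG, 1.55% TGACGTCA and 32.7% GGGCGG. Over the 14 windows RefSeq lists for the 10 genes, ACGTG was in 5 (of Aldoa, Ldha, Pgk1 and Pkm) and GGGCGG in 7 (of Aldoa, Gpi1, Ldha, Pgk1, Pkm and Tpi1), while CACGTG and TGACGTCA were in 1 each, that of Ldha. The Aldoa windows at chr7:126799255-126799504 and chr7:126799179-126799428 overlap and both count for ACGTG and GGGCGG, so the windows are not independent. These matches describe letters in the window, and whether any of them is bound or acts on these levels was not tested.

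The 10 genes held a sizeable part of the messenger of this muscle. Their share of all normalized counts, a normalized count being a read number corrected for the size of its library, was 4.70% ± 0.07 (SD, n = 5) in vehicle-treated, 4.83% ± 0.11 (SD, n = 6) in GDF15-treated and 4.87% ± 0.23 (SD, n = 5) in pair-fed muscle. Aldoa alone made up 40.8% ± 0.87 (SD, n = 16) of their sum. By mean level Aldoa ranked 6 among the 14538 genes, Gapdh 11, Eno3 18, Pkm 24 and Ldha 34, whereas Ldhb ranked 792.

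Levels of different genes were compared per kilobase of the longest annotated coding transcript. On this scale Aldoa, which splits fructose bisphosphate, was highest with 162699 ± 9338 normalized counts per kb (SD, n = 16). Gapdh, which oxidises glyceraldehyde phosphate, followed with 82865 ± 5257 and Eno3, the muscle enolase, with 50158 ± 3443. The next places went to Pgam2 (25270 ± 1304), Pkm, the pyruvate kinase gene (22840 ± 1500), Ldha (20486 ± 1555) and Tpi1, triose phosphate isomerase (17127 ± 1220). Pgk1, which makes ATP in the payoff phase (6144 ± 389), Gpi1, which turns glucose phosphate into fructose phosphate (4921 ± 245), and Ldhb (1608 ± 425) closed the order. Each gene stood above the next in all 16 libraries, and the ranges over libraries of neighbours in the order overlapped between Pgam2 and Pkm, Pkm and Ldha, and Ldha and Tpi1 and not in the other pairs of neighbours. The levels of Aldoa and Ldhb differed 101-fold and those of Aldoa and Gpi1 33.1-fold. With the median length of the coding transcripts in place of the longest, Eno3 moved to place 2 ahead of Gapdh, Pgam2 from 4 to 6 and Gpi1 from 9 to 7, while Aldoa and Ldhb kept their places at the ends.

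**Figure D1:**
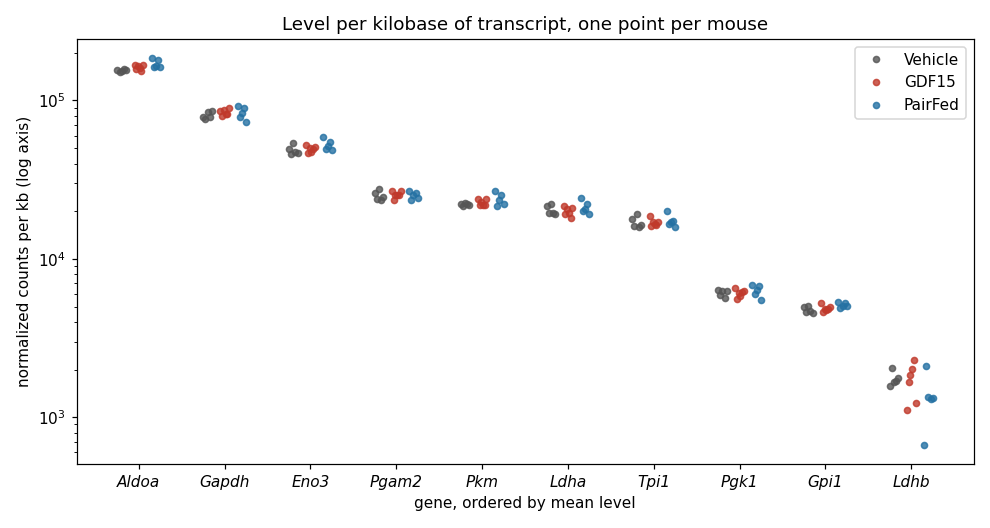
Level of each gene in normalized counts per kilobase of its longest coding transcript (log axis), with 1 point per mouse coloured by group and genes ordered by mean level. The groups lie close together for the 9 genes other than Ldhb, and the order from Aldoa at 162699 to Ldhb at 1608 is the same in each library.

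Muscle forms of the enzymes predominated where several genes share a step. Pgam2 made up 99.5% ± 0.06 of the summed per-kb level of Pgam1 and Pgam2 (SD, n = 16), and Eno3 98.9% ± 0.06 of the 3 enolase genes in the table. Aldoc, the brain aldolase, was at 0 to 6.89 normalized counts and was too low to be tested. Of the genes listed as other isozymes or related enzymes of these steps, 8 of 14 were in the table and 5 were tested: Pgam1, Eno1, Ldhd, a mitochondrial D-lactate dehydrogenase, Bpgm, which makes bisphosphoglycerate, and Aldoart1, a retrotransposed aldolase gene. By limma 0 of the 5 were called in any comparison, where 6.37% (pair-fed against vehicle), 0.769% (GDF15 against vehicle) and 2.17% (GDF15 against pair-fed) of all genes were. The smallest unadjusted p among these 5 genes was 0.0189 by limma, that of Bpgm in GDF15-treated against pair-fed muscle (log2 fold change -0.16). Their log2 fold changes ranged from -0.28 to 0.16 over the 3 comparisons.

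In the comparison of pair-fed with vehicle-treated muscle, which asks what lower food intake does without GDF15, 9 of the 10 genes had a positive log2 fold change, with a median of 0.05 against 0.00 over all genes tested. None reached an adjusted p under 0.1 (limma with Benjamini-Hochberg adjustment over 11841 genes), where 6.37% of all genes did, and none passed that and a log2 fold change of 0.6 in size together, where 0.819% did. The smallest unadjusted p by limma were 0.00818 (Aldoa) and 0.0267 (Gpi1), and the share of all genes with values that small was not counted. Scaling decides the count of positive values: with every library brought to the same sum of normalized counts, 5 of 10 were positive and the median of the 10 was 0.01 while that of all genes was -0.05, and with quantile normalization 6 of 10 were.

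Aldoa, at chr7:126795234-126800751 on the minus strand (GENCODE vM21, GRCm38, which gives this symbol to 2 loci), came closest to a call. Its normalized counts were 239797, 233407, 239166, 243731 and 241688 in vehicle mice 1 to 5, and 286524, 252848, 257471, 278039 and 251168 in pair-fed mice 2 to 6. All 5 pair-fed mice were above all 5 vehicle mice, and Aldoa was the only one of the 10 whose groups did not overlap, against 5.44% of all genes tested. The log2 fold change was 0.14 ± 0.05 (SE), a difference of 10.6% with a 95% confidence interval of 2.98% to 18.7%, at an adjusted p of 0.111 by limma. It passed the threshold of 0.1 under 4 alternatives to the processing and without pair-fed mouse 3 (adjusted p 0.0779, log2 fold change 0.16), and its adjusted p rose to 0.241 without pair-fed mouse 5.

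Gpi1 had 14320, 13389, 14477, 13485 and 13163 normalized counts in vehicle mice 1 to 5. In pair-fed mice 2 to 6 it had 15504, 14085, 14439, 15180 and 14605. Pair-fed mice 2, 5 and 6 were above all vehicle mice, and pair-fed mice 3 and 4 lay within the vehicle range. The log2 fold change was 0.10 ± 0.04 (SE; 95% confidence interval 0.01 to 0.19), with an adjusted p of 0.198 by limma.

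The groups overlapped for the remaining genes. For Pkm, pair-fed mice 2, 4 and 5 (65135, 56810 and 61658 normalized counts) were above the highest vehicle mouse at 54909, and mice 3 and 6 lay within the vehicle range. Eno3 and Pkm had log2 fold changes of 0.11 each, with 95% confidence intervals of -0.50% to 17.4% and -0.30% to 16.7%. Ldha (0.07), Pgk1 (0.04), Gapdh (0.04), Tpi1 (0.02) and Pgam2 (0.00) were closer to 0, and no interval among them went below -7.25% or above 15.0%. Pgk1, Gapdh, Tpi1 and Pgam2 turned negative when libraries were brought to the same sum, and Eno3 (-0.02), Gapdh and Pgam2 did with quantile normalization.

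**Figure D2:**
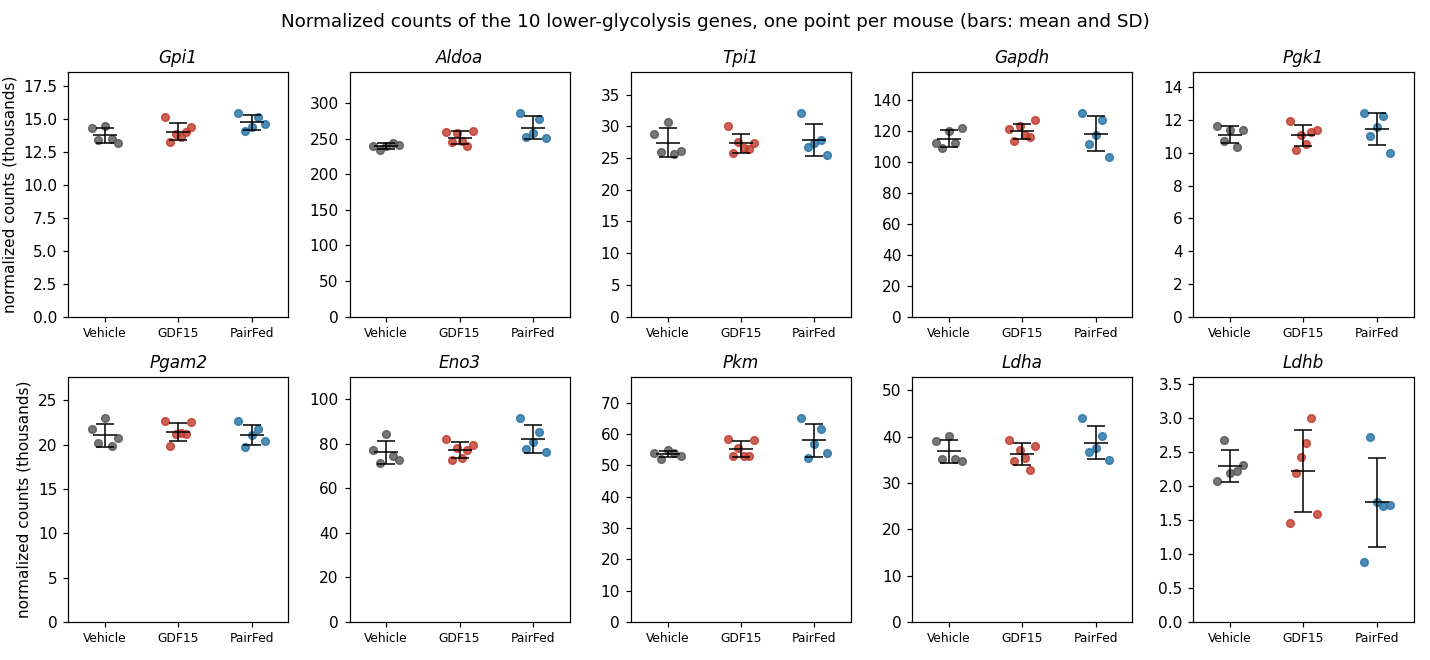
Normalized counts of each gene (in units of 1000, axes from 0), with 1 point per mouse in the Vehicle, GDF15 and PairFed groups and bars for the mean and SD. Aldoa separates pair-fed from vehicle mice by a narrow margin, and Ldhb spreads from 876 to 3002 where the other 9 genes stay within narrow bands.

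Ldhb, at chr6:142490249-142507957 on the minus strand, went the other way and had the widest interval. Vehicle mice 1 to 5 had 2068, 2677, 2187, 2217 and 2311 normalized counts, and pair-fed mice 2 to 6 had 876, 2728, 1760, 1699 and 1723. Of the pair-fed mice 4 were below all vehicle mice and mouse 3 was above all of them. The log2 fold change was -0.47 ± 0.23 (SE; 95% confidence interval -0.95 to 0.01), with an adjusted p of 0.279 by limma. The value hung on pair-fed mice 2 and 3. Without pair-fed mouse 3 it was -0.65 at an adjusted p of 0.0881, past both thresholds, and without pair-fed mouse 2 it was -0.24 at an adjusted p of 0.574.

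GDF15-treated muscle was compared with vehicle-treated muscle for the effect of the treatment with its lower food intake, and with pair-fed muscle for the effect of GDF15 at like food intake. Against vehicle, 6 of the 10 genes had a positive log2 fold change and the median was 0.02. By limma 0 of 10 reached an adjusted p under 0.1, 0 passed both thresholds and 0 had groups that did not overlap, where 0.769%, 0.304% and 1.65% of all genes did. The smallest unadjusted p by limma was 0.156 (Aldoa). The 9 genes other than Ldhb had log2 fold changes from -0.02 (Ldha) to 0.07 (Aldoa), with 95% confidence intervals within -10.0% to 13.3%. Differences within these bounds could not be resolved with 5 and 6 mice.

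Against pair-fed muscle, 3 of the 10 log2 fold changes were positive, those of Ldhb, Gapdh and Pgam2, and the median was -0.06. Again 0 of 10 reached an adjusted p under 0.1 by limma, 0 passed both thresholds and 0 did not overlap, where 2.17%, 0.279% and 1.77% of all genes did. The smallest unadjusted p by limma was 0.0987 (Gpi1). Ldha (-0.09) and Eno3 (-0.09) were lowest and Gapdh (0.02) highest among the 9, whose intervals lay within -14.2% to 10.4%. The comparisons share their groups, so a high pair-fed value raises one and lowers the other. Aldoa in GDF15-treated mice had a lowest value of 239232, a median of 252194 and a highest of 260692 normalized counts, and overlapped both other groups.

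Ldhb in GDF15-treated mice had a lowest value of 1448, a median of 2307 and a highest of 3002 normalized counts. The low values were those of mice 1 and 6, while the others lay at or above 2189, so the group spanned most of the range of the other groups. Its log2 fold change was -0.09 against vehicle (95% confidence interval -0.55 to 0.37) and 0.38 against pair-fed (-0.08 to 0.83), with adjusted p of 0.925 and 0.484 by limma. Pair-fed mice 2 and 3 deviated by -0.91 and 0.72 from the log2 mean of their group, so the value against pair-fed also hung on them.

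**Figure D3:**
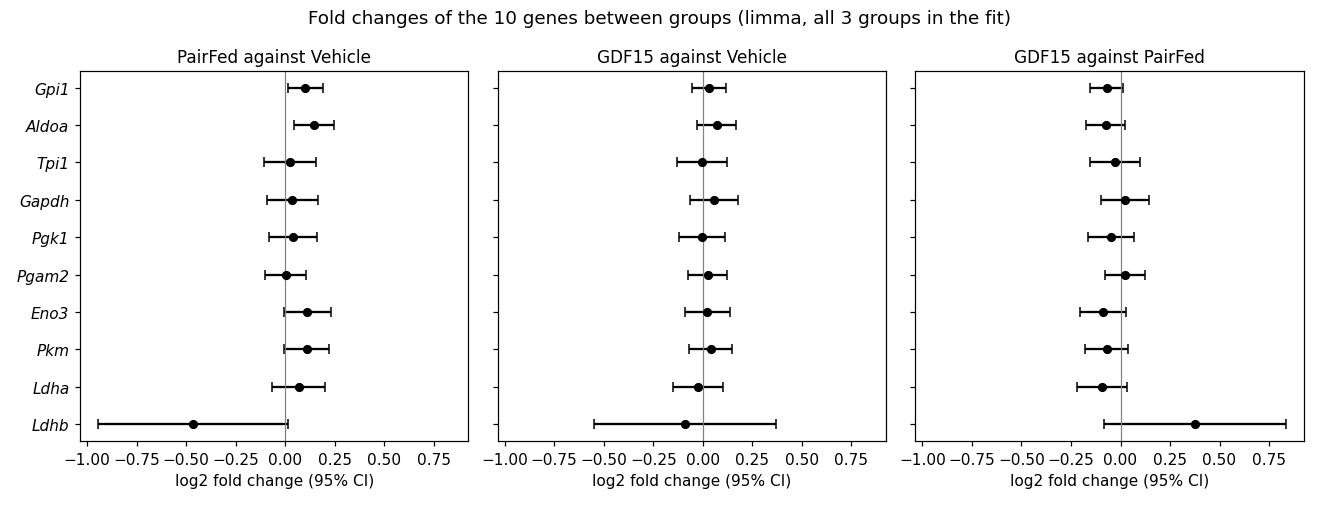
Log2 fold change of each gene with its 95% confidence interval in the comparisons of pair-fed with vehicle, GDF15 with vehicle and GDF15 with pair-fed muscle. The intervals of 9 genes are short and lie near 0, between -0.22 and 0.25 in all, and those of Ldhb are several times as long.

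The balance of the lactate dehydrogenase genes followed Ldhb. Ldhb made up 8.01% ± 1.10 of their summed per-kb level in vehicle-treated (SD, n = 5), 7.91% ± 2.39 in GDF15-treated (SD, n = 6) and 6.04% ± 2.39 in pair-fed muscle (SD, n = 5), and single mice ran from 2.69% (pair-fed mouse 2) to 11.3% (GDF15 mouse 5). The log2 ratio of Ldhb to Ldha was lower by 0.53 in pair-fed than in vehicle-treated muscle, a difference of -0.53 that did not pass an exact two-sided permutation test (p = 0.111, adjusted p = 0.727 over 12 ratio tests). Pair-fed mouse 2 had the lowest Ldhb (876 normalized counts) and the highest Ldha (44041) of all mice and weighed on this difference. The ratio differed by -0.07 between GDF15-treated and vehicle-treated muscle (exact permutation p = 0.766) and by 0.47 between GDF15-treated and pair-fed muscle (exact permutation p = 0.229). The ratios of Pgam2 to Pgam1, Eno3 to Eno1 and Aldoa to Aldoc had exact permutation p-values from 0.310 to 0.965, and the last is set largely by the pseudocount of 1, since Aldoc is near 0.

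Within groups the 9 genes varied together and Ldhb against them. The SD within groups was 0.06 (Aldoa) to 0.11 (Ldha) on the log2 scale for the 9, below the median of 0.17 over all genes tested, and 0.42 for Ldhb, at percentile 87.5 of the tested genes. Over the 16 libraries, the deviations of the 9 genes from their group means correlated positively in all 36 pairs, with Pearson's r from 0.48 (Gpi1 and Gapdh) to 0.94 (Aldoa and Pkm). Ldhb correlated negatively with each of them, from -0.51 (Pgk1) to -0.85 (Pkm). These points share libraries and scaling factors, and with libraries brought to the same sum the lowest r among the 9 fell to -0.01 and the median from 0.79 to 0.60, while Ldhb kept values from -0.88 to -0.41. Pair-fed mouse 2 showed the pattern most plainly: it was the highest of its group for all 9 genes and the lowest for Ldhb. Its counterpart on a smaller scale was GDF15 mouse 1, highest of its group for 7 genes and lowest for Ldhb.

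Some genes of fast fibres moved with the 9 genes other than Ldhb, and their part in these values was not tested. For the 9 genes only the correlations with Myh4, Actn3, Pvalb and Myh1 are given here. In deviations from group means over the 16 libraries, the 9 genes other than Ldhb correlated positively with Myh4, the myosin heavy chain of IIb fibres, Actn3, alpha-actinin 3, and Pvalb, the calcium buffer parvalbumin, as in Aldoa with Actn3 (r = 0.84), Gpi1 with Pvalb (0.81) and Ldha with Myh4 (0.78), and negatively with Myh1, the myosin heavy chain of IIx fibres, from -0.61 (Aldoa) to -0.23 (Tpi1). Ldhb had the opposite signs with these 4 genes. Its deviations correlated positively with those of Myh1 (r = 0.81) and negatively with the other 9 of the 10 fast-fibre genes, among them Tnnc2, fast troponin C (-0.89), Pvalb (-0.86), Actn3 (-0.82) and Myh4 (-0.78). Correlations with the 8 slow-fibre genes ran from -0.01 (Myh7, slow myosin) to 0.63 (Myoz2). The correlations with Myh1 and Tnnc2 stayed between 0.72 and 0.89 and between -0.92 and -0.83 whichever library was left out. They were chosen for description after the values were seen. Pair-fed mouse 2, lowest in Ldhb, had the lowest Myh1 (77806 normalized counts) and the highest Tnnc2 (120982), and GDF15 mouse 5, highest in Ldhb, had 166367 and 96377.

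**Figure D4:**
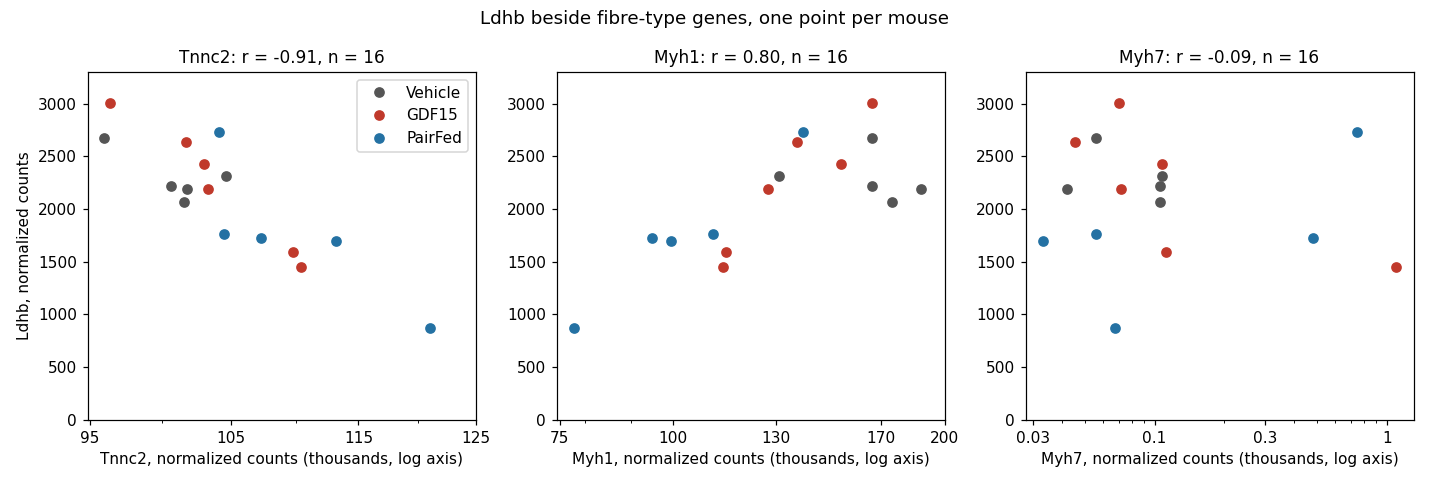
Normalized counts of Ldhb against those of Tnnc2, Myh1 and Myh7 (in units of 1000, log axes), with 1 point per mouse coloured by group and Pearson's r over the 16 libraries above each panel. Ldhb is low where Tnnc2 is high (r = -0.91) and high where Myh1 is high (0.80), and r with Myh7 is -0.09.

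Some fast-fibre genes differed between the groups. In pair-fed against vehicle-treated muscle Myh1 fell by 0.68 on the log2 scale (adjusted p 0.0123 by limma), while Actn3 (0.33), Pvalb (0.27), Atp2a1, the fast calcium pump (0.20), and Ckm, muscle creatine kinase (0.15), rose with adjusted p from 0.0167 to 0.0997, so that 4 of the 10 fast-fibre genes were called higher and 1 lower, with 6.37% of all genes called. The median over the 10 was 0.16. Tnnc2 (0.12, adjusted p 0.194 by limma) and Myh4 (0.18, adjusted p 0.272) were not called. In GDF15-treated against pair-fed muscle 1 of the 10 was called, Actn3, which fell by 0.27 (adjusted p 0.0678 by limma), and in GDF15-treated against vehicle-treated muscle 0 were, where 2.17% and 0.769% of all genes were called. The pair-fed against vehicle calls of Myh1 and Actn3 held under every alternative and with each library left out, while that of Pvalb was lost without any of 5 libraries (adjusted p up to 0.133 by limma). Atp2a1 lost its call under 3 of 13 alternatives and 1 of 16 libraries left out, and Ckm under 8 and 12. Their log2 fold changes were 0 under quantile normalization, which gives each rank the same value in every library. For a gene of constant rank that 0 is fixed and tests nothing. Actn3 lost its call against pair-fed muscle under 3 of 13 alternatives and 7 of 16 libraries left out (adjusted p up to 0.314 by limma). These alternatives were added after seeing the data. The summed level of the fast-fibre genes was 2453930 to 2741083 normalized counts in vehicle-treated, 2519174 to 2791144 in GDF15-treated and 2680860 to 3096712 in pair-fed mice, whereas 0 of 8 slow-fibre genes were called in any comparison by limma. Of the marker genes in 9 lists for other cell types, only Kdr, an endothelial receptor, was called, lower in pair-fed (-0.50) and in GDF15-treated (-0.66) than in vehicle-treated muscle, and both calls held under every alternative. All 5 endothelial genes had log2 fold changes below 0 in both comparisons with vehicle, and their summed level was 4301 to 5168 normalized counts in vehicle-treated, 3647 to 4457 in GDF15-treated and 3814 to 4593 in pair-fed mice. All 4 tendon genes had log2 fold changes above 0 in both (medians 0.53 in pair-fed and 0.70 in GDF15-treated muscle) without passing the test, and their summed level was 1230 to 1737 in vehicle-treated, 1746 to 5008 in GDF15-treated and 1088 to 3687 in pair-fed mice. All 5 adipocyte genes were also above 0 in both without passing the test (medians 0.81 and 0.50), with sums of 75.9 to 394 in vehicle-treated, 46.9 to 1170 in GDF15-treated and 209 to 581 in pair-fed mice that overlapped. The tendon sum was highest of its group in GDF15 mouse 1 and pair-fed mouse 2, each lowest of its group in Ldhb, but in the vehicle group it was highest in mouse 2, which was highest in Ldhb. The Schwann cell genes were below 0 in 5 of 5 in pair-fed against vehicle-treated muscle (median -0.21) and above 0 in 5 of 5 in GDF15-treated against pair-fed muscle (0.33), and their sum was lowest in pair-fed mouse 2 (607) and highest in pair-fed mouse 3 (1587), the pair-fed mice lowest and highest in Ldhb. In GDF15-treated against pair-fed muscle all 5 macrophage genes (median 0.56), all 5 fibroblast genes (0.35), all 4 tendon genes (0.23) and all 3 red blood cell genes (1.17) were also above 0 without passing the test. Against vehicle, GDF15-treated muscle had all 3 red blood cell genes (median 1.24) and all 5 Schwann cell genes (0.20) above 0. There 0 of 5 smooth muscle and pericyte genes (-0.05) and 0 of 3 satellite cell genes (-0.23) were above 0, and none of these passed the test. The part of these cell types in the values of the 10 genes was not tested. In whole muscle, fewer fibres of a type and less RNA per fibre cannot be told apart.

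Some genes that supply the pathway or set its flow were called, and the contrast with the 10 was not itself tested. Of 12 tested genes listed for the hexose steps before aldolase, a list without Gpi1, 5 rose and 0 fell in pair-fed against vehicle-treated muscle, where 6.37% of all genes were called in either direction, with a median log2 fold change of 0.06 over the list. Hk2, the hexokinase of insulin-sensitive muscle, rose by 0.28, Pfkm, muscle phosphofructokinase, by 0.19, Pfkfb4, which sets fructose 2,6-bisphosphate, by 0.39 and Tigar, which lowers it, by 0.29, with adjusted p from 0.00605 to 0.0297 by limma. Pfkfb3, the other called enzyme of fructose 2,6-bisphosphate, had 2207, 2341, 4716, 2664 and 3371 normalized counts in vehicle mice and 7528, 3273, 5594, 5412 and 4851 in pair-fed mice, where pair-fed mouse 3 lay below vehicle mice 3 and 5 and the other pair-fed mice lay above every vehicle mouse. It rose by 0.81 (adjusted p 0.0609 by limma), a call lost on leaving out vehicle mouse 1, 2 or 4 or pair-fed mouse 2, 5 or 6 (adjusted p up to 0.154). In GDF15-treated mice Pfkfb3 ran from 1481 to 2971, below every pair-fed mouse, and against pair-fed muscle it fell by 1.38 (adjusted p 0.00718), with Tigar (-0.29) and Pfkfb4 (-0.25) also called lower, so that 3 of the 12 were called against 2.17% of all genes. Of these, the call of Pfkfb3 held under every alternative tried, while those of Tigar and Pfkfb4 were lost under some and without single libraries (adjusted p up to 0.179 and 0.183 by limma). In GDF15-treated against vehicle-treated muscle 0 of the 12 were called by limma, where 0.769% of all genes were, a share at which 0 of 12 says little.

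Of 15 tested genes of glycogen and glucose phosphate turnover, 5 rose and 1 fell in pair-fed against vehicle-treated muscle, where 6.37% of all genes were called. Those that rose were Pygm, muscle glycogen phosphorylase (0.22), Phka1 (0.21) and Phkg1 (0.16), subunits of phosphorylase kinase, Ppp1r3a, a glycogen-targeting phosphatase subunit (0.19), and Gyg, glycogenin (0.15). Ppp1r3c, another glycogen-targeting subunit, fell by 0.73 (adjusted p 0.0647 by limma), a call lost on leaving out vehicle mouse 1, 2 or 5 or pair-fed mouse 2, 5 or 6 (adjusted p up to 0.158). In GDF15-treated against pair-fed muscle Ppp1r3c rose by 1.23 (adjusted p 0.00808), and Phka1 (-0.22) and Ppp1r3a (-0.19) were called lower, with 2.17% of all genes called. In GDF15-treated against vehicle-treated muscle 0 of the 15 were called by limma, with 0.769% of all genes called.

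Of 18 tested genes for transport of glucose, lactate and pyruvate and for NADH shuttles, 2 rose and 2 fell in pair-fed against vehicle-treated muscle, where 6.37% of all genes were called. Slc2a1, the glucose transporter GLUT1, rose by 0.48 and Gpd2, the mitochondrial glycerol phosphate dehydrogenase, by 0.30, while Slc16a1, the lactate carrier MCT1, fell by 0.43 and Mpc2, a subunit of the mitochondrial pyruvate carrier, by 0.20. Gpd2 was also called lower in GDF15-treated than in pair-fed muscle (-0.27). Of 14 tested regulators of glycolytic genes, 1 rose and 2 fell in the same comparison, against the same share of all genes. Arnt, the partner of the hypoxia-inducible factors, rose by 0.20, and Mlxip, a glucose-responsive factor, fell by 0.38. Mlxip was called lower in GDF15-treated than in vehicle-treated muscle (-0.25), and Arnt lower than in pair-fed muscle (-0.20), where 0.769% and 2.17% of all genes were called. With libraries brought to the same sum, 0 regulators were higher and 4 lower in pair-fed muscle. Of these 27 calls in the pathway lists, 10 held under every alternative tried: those of Hk2, Pfkfb4, Tigar, Gyg, Gpd2, Slc16a1, Mpc2 and Mlxip in pair-fed against vehicle-treated muscle, and of Pfkfb3 and Ppp1r3c in GDF15-treated against pair-fed muscle. Pfkm and Pygm lost theirs under quantile normalization alone, where their log2 fold changes went from 0.19 to 0.04 and from 0.22 to 0.07 (adjusted p 0.411 and 0.150 by limma). That normalization compares the ranks of genes within libraries rather than their levels. The calls of Pfkfb3 and Ppp1r3c against vehicle depended on the mice named above, and the other 13 were lost under at least 1 alternative or library left out, with adjusted p up to 0.241.

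**Figure D5:**
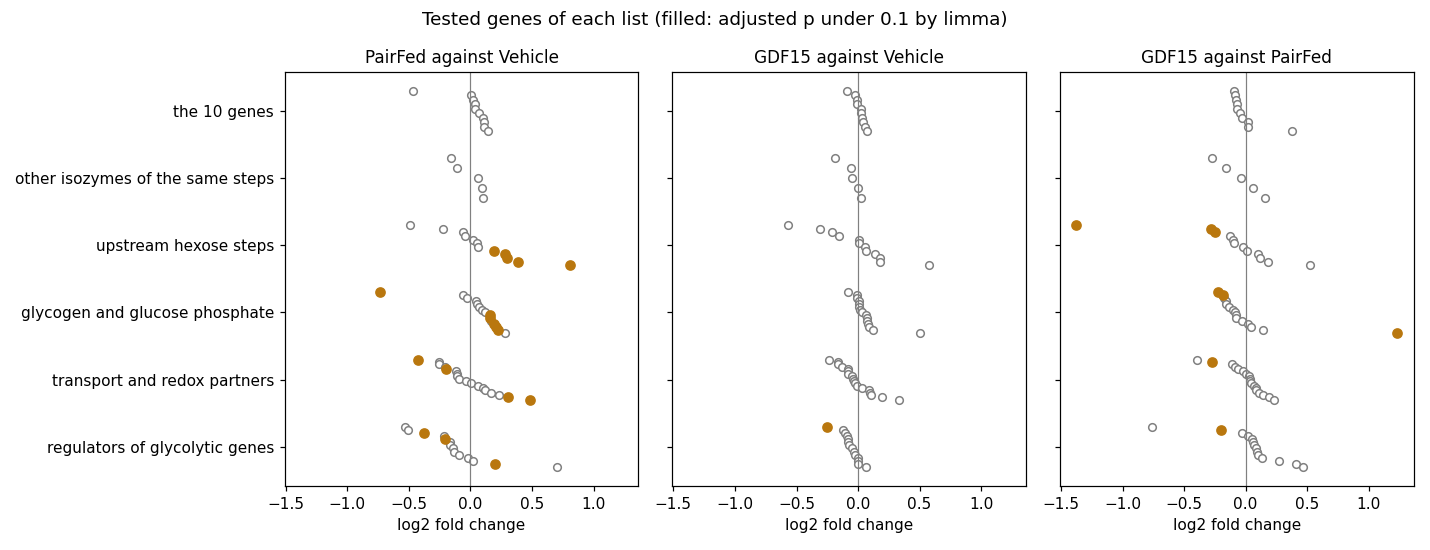
Log2 fold changes of the tested genes of each list in the comparisons, with genes at an adjusted p under 0.1 by limma filled. The 10 genes and the other isozymes hold no filled point, while the upstream hexose list holds 5 in pair-fed against vehicle-treated muscle and 3 in GDF15-treated against pair-fed muscle, where 6.37% and 2.17% of all genes were called.

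The genes whose log2 levels went most closely with the mean of the 10 over the 16 libraries were Mapkapk2 (Pearson's r = 0.86), Hhatl (0.79), 3110009E18Rik (0.79), Rpl34 (0.78) and Ube2v1 (0.77), given as a description. For comparison, r of the 10 with their own mean ran from 0.49 (Aldoa) to 0.84 (Pgk1) in 9 and was -0.26 for Ldhb. Some reads may be shared: exons of Pkm overlap those of Gm49759 on the same strand, and on the opposite strand exons of Gapdh overlap those of Iffo1, of Tpi1 those of Spsb2, of Aldoa those of Fam57b and of Gpi1 those of Gm26762, and the retrotransposed Aldoart1 had 10.8 to 23.8 normalized counts. The kit keeps strand, and the strand setting of the quantification is not given in the sources used here.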

How the data were processed

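Reads were trimmed by the authors (Trim Galore), assigned to transcripts with Salmon and scaled with DESeq2; the submitters' processing notes name mm10, and versions are not given in the sources used here. The authors deposited log2 values per gene symbol, from 7.32 to 19.96, whose form is that of DESeq2's variance stabilizing transformation. The tests had been designed for normalized counts, so the values were transformed back; 88.6% to 96.8% of low values of single-transcript genes per library were then within 0.1 reads of whole multiples of 1 read, against 20.2% to 26.3% in genes with over 4 transcripts. Whole reads were thus not recovered for all genes, no count test was run, and the depth was estimated from that step.

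With a minimum average of 10 normalized counts per gene and a pseudocount of 1, log2 levels entered limma 3.58.1 (R 4.3.3; eBayes with a trend, all 3 groups, no covariate). Tests were two-sided with Benjamini-Hochberg adjustment, and a call needed an adjusted p under 0.1 alone or together with a log2 fold change over 0.6 in size. The fit was tested on simulated data. Ratios of isozymes were tested by exact permutation in Python 3.11.15 (scipy 1.17.1). Lengths and positions came from GENCODE vM21 (GRCm38). The genes named were the 10, the other isozymes, called genes of the lists (at most 6 per list and comparison), and the 5 genes most like the mean of the 10; fibre genes beside Ldhb were picked after their values were seen. The 10 genes and the lists were chosen with earlier results of these data known. Groups came from the labels, and each mouse gave 1 library. Pseudocounts, minimum means, scalings, weights, thresholds, the mouse number as a block and each library left out in turn were tried as alternatives. Of the scalings, quantile normalization keeps only the rank of a gene within its library. The values of 1 gene counted in the lists are not reported here.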

Additional observations from a re-analysis of the deposited data

Results flagged for a closer look

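The log2 ratio of Eno3 to Eno1 was 6.04 in pair-fed mouse 6, below the nearest other pair-fed mouse at 6.20, a gap of 0.737 of the range of its group against a critical value of 0.71 for 5 samples. Over 45 groups of values examined this was the only 1, and chance alone gives about 1 in 20.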

How the results depend on the processing

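The 9 genes other than Ldhb had at least 9997 normalized counts in every library, and Ldhb at least 876; what depth, scaling and the number of mice each add to the error was not tested. In pair-fed against vehicle muscle, the count of the 10 genes with an adjusted p under 0.1 went from 0 to 1 with a minimum mean of 50, library quality weights, the same upper quartile or the deposited values as they stand (Aldoa each time) and with quantile normalization (Gpi1), and ran from 0 to 2 with a library left out, while the count past both thresholds ran from 0 to 1. The count was 0 with the replicate block, which changed no call of the 10. Different animals share the mouse numbers: deviations of same-numbered libraries correlated between -0.0994 and 0.0665, and in 4 of 28 cases a library matched its own number best, so the samples share only a number. With that block, Tpi1, Pgk1 and Pgam1 in GDF15 against vehicle turned to 0.0100, 0.0120 and -0.00397, and 9 of 27 calls in the pathway lists were lost.

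Small log2 fold changes reversed. With the same sum per library they were -0.0236 (Tpi1), -0.0101 (Gapdh), -0.00592 (Pgk1), -0.0444 (Pgam2) in pair-fed against vehicle, 0.0145 (Tpi1), 0.00503 (Eno1) in GDF15 against pair-fed and -0.00317 (Pgam1) in GDF15 against vehicle. With quantile normalization they were -0.0666 (Gapdh), -0.0572 (Pgam2), -0.0155 (Eno3) in pair-fed against vehicle, -0.00144 (Aldoa), 0.0246 (Tpi1), -0.0211 (Gapdh), 0.0331 (Pgk1), -0.0134 (Eno3), 0.0632 (Ldha) in GDF15 against vehicle and 0.00212 (Eno3) in GDF15 against pair-fed. In GDF15 against vehicle, quality weights gave 0.00300 (Tpi1), -0.000413 (Pgam1) and the deposited values -0.000575 (Pgam1), and by medians the log2 ratios were 0.0288 (Ldhb to Ldha), -0.0168 (Eno3 to Eno1) and -0.00333 (Aldoa to Aldoc).

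With each library left out in turn, values that reversed ran from -0.0290 to 0.0649 (Tpi1), -0.00361 to 0.0841 (Gapdh), -0.0231 to 0.0348 (Pgam2), -0.0172 to 0.189 (Aldoart1) in pair-fed against vehicle, from -0.0325 to 0.0369 (Tpi1), -0.0291 to 0.0191 (Pgk1), -0.0483 to 0.00617 (Ldha), -0.188 to 0.0222 (Ldhb), -0.0617 to 0.0427 (Pgam1), -0.0989 to 0.0145 (Ldhd) in GDF15 against vehicle and from -0.0603 to 0.0244 (Tpi1), -0.0255 to 0.0622 (Gapdh), -0.00353 to 0.0469 (Pgam2) in GDF15 against pair-fed. The log2 ratios ran from -0.191 to 0.0706 (Ldhb to Ldha), -0.0209 to 0.0968 (Pgam2 to Pgam1), -0.0284 to 0.0301 (Eno3 to Eno1) and -0.313 to 0.300 (Aldoa to Aldoc) in GDF15 against vehicle, and for Aldoa to Aldoc from -0.141 to 0.568 in pair-fed against vehicle and -0.589 to 0.180 in GDF15 against pair-fed. The lowest correlation among the 9 genes turned from 0.483 to -0.00579 with the same sum per library, an alternative chosen after seeing the data. The cause of these changes was not tested.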
